A study of Mus musculus with 44 samples.

Results

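The translatomes of 12 hippocampi were compared for the effect of early-life exercise (ELE) that is shared by the left and the right hemisphere. The 12 libraries, of 44 samples in the series, were those in which translating mRNA and nuclei had been isolated from separate hippocampi: 6 from ELE mice and 6 from sedentary mice, with 3 left and 3 right hippocampi in each condition. All 12 mice were male Emx1-NuTRAP animals, offspring of Emx1-IRES-Cre and NuTRAP parents, and each gave 1 hippocampus to this measurement while its other side went to nuclei. NuTRAP carries a Cre-dependent cassette that puts an affinity tag on ribosomes, so that translating ribosome affinity purification (TRAP) recovers mRNA from the cells in which Cre has been active. Emx1 drives Cre in the dorsal telencephalic lineage, which gives rise to excitatory forebrain neurons and also to astrocytes and oligodendrocytes, so the libraries are not purely neuronal. ELE mice had a running wheel in the home cage from postnatal day 21 to 41, and sedentary mice of the same age lived in standard cages. Littermates were divided between the conditions and housed in pairs, 1 wheel served a whole cage, and which mice shared a cage is not given in the sources used here. The hour at which tissue was taken is also not given there. The model held a term for hemisphere and a term for exercise, so a fold change below is ELE over sedentary, averaged over both sides.

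Exercise is known to engage several transcript families in hippocampal neurons. Neuronal firing induces immediate early genes, which encode transcription factors such as FOS and the EGR proteins, within minutes, and these are followed by effector genes that act at synapses. A separate set, the circadian clock, turns over on a daily cycle: BMAL1 (encoded by *Arntl*) and CLOCK activate *Per*, *Cry*, *Nr1d1*, *Nr1d2*, *Ciart* and *Dbp* through E-boxes, the PER and CRY proteins inhibit BMAL1 and CLOCK, and the REV-ERB proteins (NR1D1 and NR1D2) repress *Arntl* and *Nfil3*.

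Library totals ran from 45895097 to 65767802 counts, so that 3 counts equalled 0.0456 to 0.0654 CPM (counts scaled to a fixed library total), the unit of every level below. Counts were scaled by the trimmed mean of M values, and 18810 genes passed the filter on low counts. Markers of excitatory forebrain neurons summed to 14283 to 17310 CPM in ELE libraries and 13971 to 16762 CPM in sedentary libraries. Astrocyte markers summed to 6460 to 9807 and 7043 to 9194 CPM, while microglial markers stayed between 9.33 and 15.0 CPM in all 12 libraries. TG9.1.4 (ELE, left) and TG9.1.1 (sedentary, right) lay at 35.9 and 23.0 on the first principal component, which held 38.6% of the variance, and the library next to them lay at 15.9. In bulk libraries such as these, fewer cells of a type and less RNA per cell cannot be told apart.

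Few transcripts differed with exercise across both sides, and the gene with the smallest p was *Arntl*, which was 1.41-fold higher in ELE mice. A group of clock genes and a group of activity-induced genes gave further calls, and genes called lower held many processed pseudogenes. A gene was called when its unadjusted p was under 0.05 and its change exceeded 1.31-fold. By this rule 378 genes (2.01% of those tested) were called, 150 higher (0.797%) and 228 lower (1.21%) in ELE mice. An unadjusted p under 0.05 was reached by 998 genes, or 5.31%, where the threshold alone lets through 5% of genes when none differ. After Benjamini-Hochberg adjustment over all genes 1 gene (0.00532%), *Arntl*, stayed under 0.05. All other genes described below as higher or lower passed only the unadjusted rule, save those given with a change under 1.31-fold. Those were not called. The median log2 fold change over all genes was 0.00022. Without the ELE library TG7.3.2 the lower genes numbered 427, and without the sedentary library TG9.1.1 the higher genes numbered 337.

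Of the 378 called genes, 149 of the 150 higher and 227 of the 228 lower genes had the same sign in the left and the right hippocampus. The additive model selects for this agreement, and 55.3% of all tested genes had it. A change past the fold limit on each side separately was seen for 107 higher and 163 lower called genes, against 6.23% of all genes tested. An interaction with hemisphere reached an unadjusted p under 0.05 for 5 higher and 10 lower called genes, against 2.6% of all genes. Complete separation, with all 6 ELE libraries on one side of all 6 sedentary libraries, was found for 22 higher genes (0.117% of those tested) and 31 lower genes (0.165%). Of these, 6 higher and 16 lower genes were also called. Some genes separate in this way even when none differ, and that share was not computed. Separation on the left and on the right, each side by itself, held for 16 higher and 33 lower called genes, against 0.356% and 0.34% of all genes. In the model with an effect for each side, fitted on all 12 libraries, the effect on the left called 435 genes (2.31%), 231 higher (1.23%) and 204 lower (1.08%), and that on the right 448 genes (2.38%), 153 higher (0.813%) and 295 lower (1.57%). Fitted on the 6 libraries of each side alone, the counts were 196 higher and 171 lower on the left and 131 and 216 on the right.

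**Figure D1:**
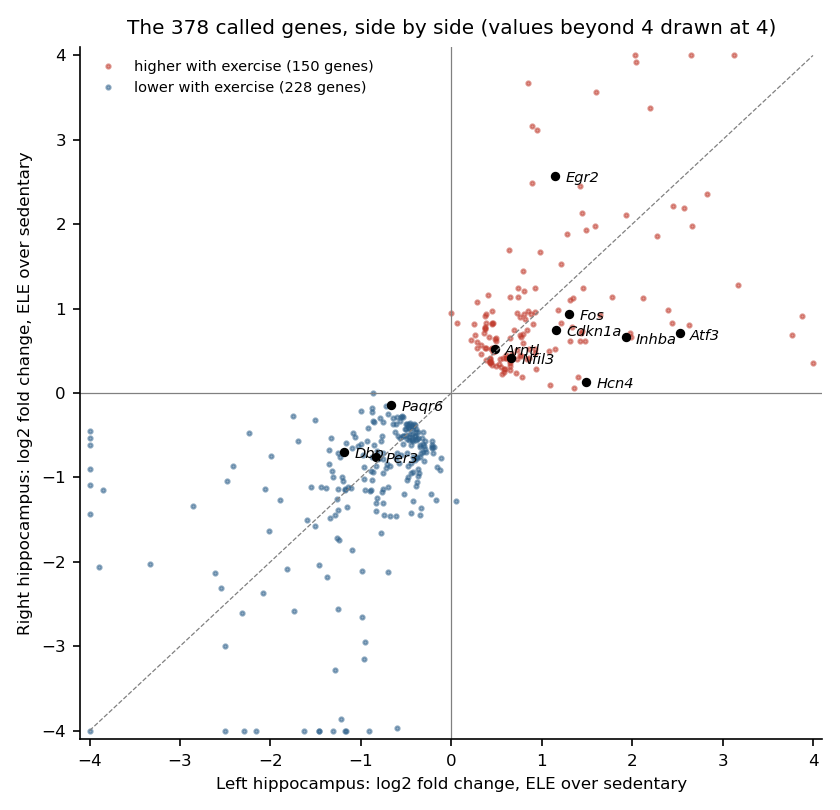
Log2 fold change (ELE over sedentary) in the left (x axis) and the right (y axis) hippocampus for each of the 378 called genes, 150 higher (red) and 228 lower (blue), with 11 genes labelled and the dashed line marking equal change. *Arntl* lies on the line at 0.48 and 0.52, *Egr2* above it at 1.15 and 2.57 and *Atf3* and *Hcn4* below it; values beyond 4 are drawn at 4.

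Clock genes were called in both directions, with values on the left close to those on the right for most. *Arntl* and *Nfil3* were higher and *Dbp*, *Ciart*, *Nr1d2* and *Per3* were lower in ELE mice. Of the 13 core clock genes tested 1 was called higher and 3 lower, and of the 6 output factors 1 was called higher and 1 lower. The shares over all genes tested were 0.797% higher and 1.21% lower. The remaining 9 and 4 genes were not called. The list medians were -0.07 and -0.15.

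*Arntl* encodes BMAL1, the obligate partner of CLOCK. Its level was 42.4, 45.3 and 47.4 CPM (lowest, median and highest) in ELE libraries and 29.2, 32 and 34 CPM in sedentary libraries. The groups did not overlap, and the lowest ELE library stood well above the highest sedentary one. The log2 fold change was 0.50 (SE 0.058, unadjusted p = 4.57e-07, adjusted p = 0.00859 by edgeR's quasi-likelihood test). On the left it was 0.48 and on the right 0.52, a difference that did not pass the test (unadjusted p = 0.737 for the interaction). The adjusted p ranged from 4.68e-11 to 0.0237 over the 9 alternatives that kept all 12 libraries, and from 0.0150 to 0.0576 when each library was left out in turn, staying under 0.05 in 9 of 12 cases and not without TG7.3.4 (0.0576), TG9.2.1 (0.051) or TG9.2.4 (0.0564). Without the 4 libraries rich in choroid plexus transcripts (described further on) the log2 fold change was 0.48 (unadjusted p = 9.15e-05) and the adjusted p 1. With all 4 mice of 1 number set (described below) left out, the adjusted p of *Arntl* was 0.813 without the TG7.3 mice, 0.0625 without the TG9.1 mice and 1 without the TG9.2 mice. The fold changes of these 3 fits were 0.45 to 0.53 on the log2 scale.

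*Nfil3* encodes a basic leucine zipper repressor that competes with DBP for D-boxes. Its level was 15.5, 18.5 and 21.8 CPM in ELE libraries and 11.2, 12.2 and 16.4 CPM in sedentary libraries. Only the sedentary library TG9.1.1 reached into the ELE range. The log2 fold change was 0.54 (SE 0.114, unadjusted p = 0.000281, adjusted p = 0.661), with 0.66 on the left and 0.42 on the right. Without TG9.1.4 and TG9.1.1 it was 0.57 (SE 0.0982).

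*Dbp*, which encodes the activator that opposes NFIL3, showed the reverse. ELE libraries held 12.6, 27.4 and 31.9 CPM and sedentary libraries 31.2, 51.8 and 55.9 CPM. The sedentary library TG9.1.1 alone lay inside the ELE range, at 31.2 CPM, and the other 5 lay at 49.9 CPM or more. The log2 fold change was -0.94 (SE 0.194, unadjusted p = 0.000233, adjusted p = 0.627), with -1.19 on the left and -0.70 on the right. Without TG9.1.4 and TG9.1.1 it was -0.89 (SE 0.0827) with an adjusted p of 0.000363.

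*Ciart*, *Nr1d2* and *Per3* encode repressors within the loop. *Ciart* held 1.82, 3.00 and 4.99 CPM in ELE and 4.72, 5.43 and 6.82 CPM in sedentary libraries, so that the highest ELE library passed the lowest sedentary libraries. Its log2 fold change was -0.77 (SE 0.216, unadjusted p = 0.00307), at -0.76 on the left and -0.78 on the right. *Nr1d2*, encoding REV-ERB beta, held 28.4, 55.2 and 70.7 CPM in ELE and 63.5, 76.2 and 92.1 CPM in sedentary libraries, with a small overlap. Its log2 fold change was -0.52 (SE 0.172, unadjusted p = 0.00872), at -0.53 and -0.51. With TG9.1.4 and TG9.1.1 left out, *Ciart* stood at -0.71 (SE 0.236) and *Nr1d2* at -0.43 (SE 0.109). *Per3* held 7.80, 15.7 and 21.7 CPM in ELE and 10.4, 30.1 and 33.8 CPM in sedentary libraries, and again the sedentary library inside the ELE range was TG9.1.1. Its log2 fold change was -0.79 (SE 0.267, unadjusted p = 0.00968), at -0.84 and -0.75, and -0.81 (SE 0.124) without TG9.1.4 and TG9.1.1.

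The other arms of the clock did not pass the test. *Per1* and *Per2*, whose products inhibit BMAL1 and CLOCK and which neuronal activity can also induce, had log2 fold changes of -0.09 (SE 0.0942) and -0.07 (SE 0.157). *Nr1d1*, the close relative of *Nr1d2*, stood at -0.15 (SE 0.0922) and *Clock* at 0.05 (SE 0.076). *Cry1* had a log2 fold change of 0.39 (SE 0.201, unadjusted p = 0.0736), which fell to 0.07 without TG9.1.4 and TG9.1.1. The D-box activators related to DBP, *Tef* and *Hlf*, stood at -0.20 (SE 0.101) and -0.31 (SE 0.223).

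**Figure D2:**
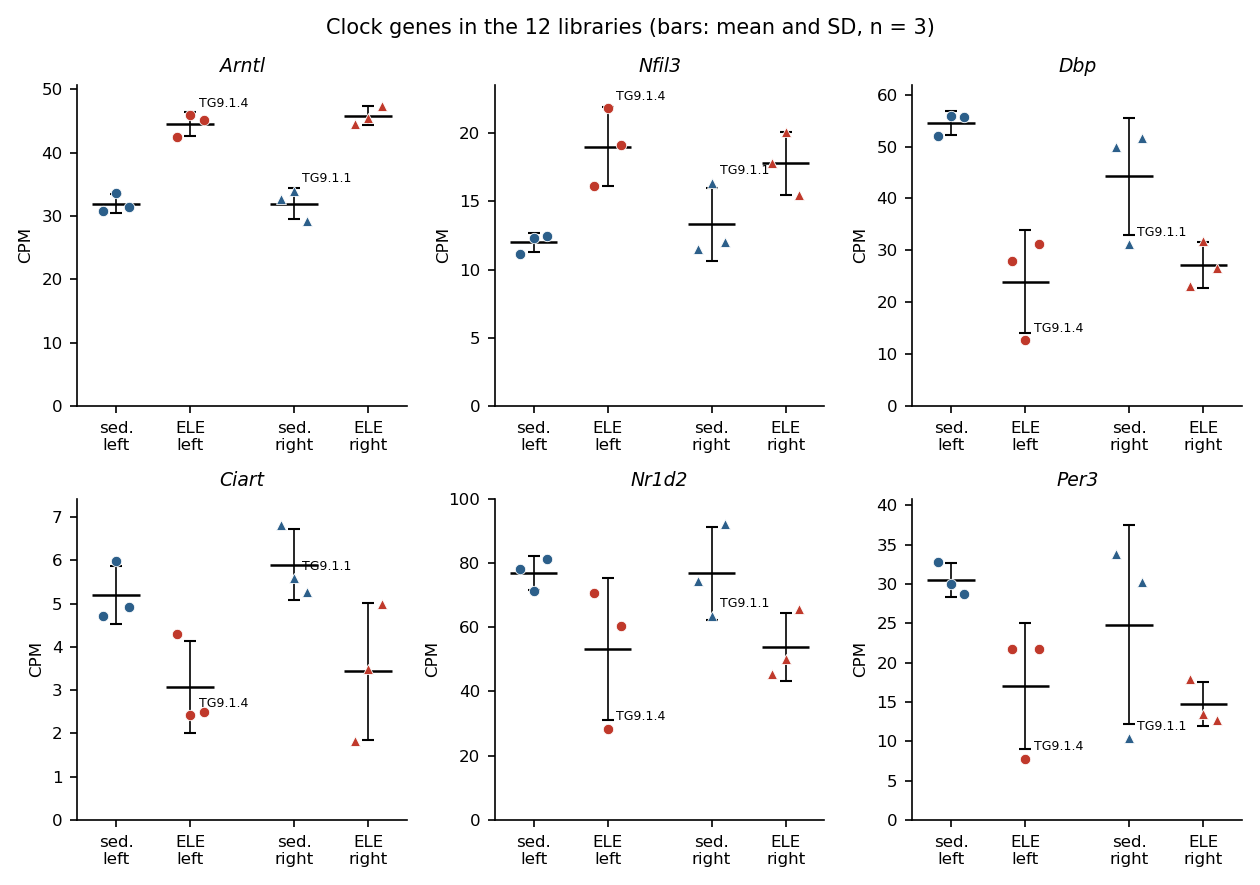
Levels of 6 clock genes (CPM, y axes) in each of the 12 libraries, by side and condition, with bars for the mean and SD of 3 libraries and the mice TG9.1.4 and TG9.1.1 labelled. *Arntl* separates the conditions on both sides, while the sedentary library TG9.1.1 lies near the ELE libraries for *Nfil3*, *Dbp* and *Per3*.

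The mice fall into 3 sets by the first part of their number (TG7.3, TG9.1 and TG9.2), each with 1 ELE and 1 sedentary library per side. Within each set the *Arntl* difference, as a mean of log2(CPM + 0.5), was 0.45, 0.43 and 0.60. *Dbp* gave -0.99, -1.04 and -0.88 and *Per3* gave -0.74, -0.76 and -0.81. *Nfil3* gave 0.56, 0.54 and 0.47, *Ciart* -0.89, -0.88 and -0.46, and *Nr1d2* -0.42, -0.83 and -0.46. The direction was the same in each of the 3 sets for these 6 genes. They were called on the same 12 libraries, which favours such agreement: it held for 354 of the 378 called genes and for 31.3% of all genes tested.

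The 250 bases upstream of the annotated starts are shown for these 6 genes and for *Fos*, because the clock loop described above runs through short promoter motifs. Capitals mark any match, on either strand, to an E-box (CACGTG), a D-box (TTANNTAA), a cyclic AMP response element (CRE, TGACGTCA) or its short form (TGACG), or the core site of REV-ERB and ROR receptors (AGGTCA). The sequences are from RefSeq on GRCm38.p6 and are written in the direction of transcription, and *Arntl* has 2 listed starts, of which the first is given.
*Arntl* (chr7:113207215-113207464, plus strand): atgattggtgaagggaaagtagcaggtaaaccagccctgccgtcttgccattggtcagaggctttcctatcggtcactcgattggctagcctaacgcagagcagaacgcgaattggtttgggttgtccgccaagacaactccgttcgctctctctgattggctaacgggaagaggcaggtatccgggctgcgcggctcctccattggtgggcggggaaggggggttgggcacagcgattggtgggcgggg
*Nfil3* (chr13:52981040-52981289, minus strand): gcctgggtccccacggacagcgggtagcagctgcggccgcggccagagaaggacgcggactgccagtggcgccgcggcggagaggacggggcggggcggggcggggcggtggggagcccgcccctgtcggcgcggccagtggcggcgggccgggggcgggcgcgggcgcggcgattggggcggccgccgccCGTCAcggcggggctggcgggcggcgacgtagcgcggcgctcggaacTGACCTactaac
*Dbp* (chr7:45704997-45705246, plus strand): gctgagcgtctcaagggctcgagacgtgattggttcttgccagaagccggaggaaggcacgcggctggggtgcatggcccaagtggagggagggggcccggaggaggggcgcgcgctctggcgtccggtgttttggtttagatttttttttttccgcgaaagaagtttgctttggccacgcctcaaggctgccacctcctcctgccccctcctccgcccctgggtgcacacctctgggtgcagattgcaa
*Ciart* (chr3:95882229-95882478, minus strand): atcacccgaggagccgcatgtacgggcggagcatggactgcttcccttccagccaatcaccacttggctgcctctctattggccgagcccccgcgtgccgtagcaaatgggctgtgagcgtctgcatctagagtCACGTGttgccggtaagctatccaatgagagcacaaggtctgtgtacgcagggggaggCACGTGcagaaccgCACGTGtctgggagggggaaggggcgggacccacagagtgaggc
*Nr1d2* (chr14:18239107-18239356, minus strand): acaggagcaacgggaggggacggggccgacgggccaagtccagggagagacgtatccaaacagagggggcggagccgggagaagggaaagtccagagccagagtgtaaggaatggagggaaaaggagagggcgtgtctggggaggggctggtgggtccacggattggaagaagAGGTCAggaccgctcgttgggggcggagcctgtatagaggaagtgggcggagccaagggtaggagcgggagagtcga
*Per3* (chr4:151044666-151044915, minus strand): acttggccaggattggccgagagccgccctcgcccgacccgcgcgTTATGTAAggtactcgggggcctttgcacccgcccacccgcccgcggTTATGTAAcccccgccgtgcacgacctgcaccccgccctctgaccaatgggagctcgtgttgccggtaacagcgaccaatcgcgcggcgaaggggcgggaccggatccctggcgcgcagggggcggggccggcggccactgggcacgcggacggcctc
*Fos* (chr12:85473640-85473889, plus strand): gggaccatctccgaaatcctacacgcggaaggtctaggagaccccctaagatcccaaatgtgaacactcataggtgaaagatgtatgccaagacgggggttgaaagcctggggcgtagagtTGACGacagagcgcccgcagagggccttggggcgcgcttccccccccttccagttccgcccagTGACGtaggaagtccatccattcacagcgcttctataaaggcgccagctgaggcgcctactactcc
*Ciart*, lower in ELE mice, held 3 E-boxes, starting 116, 58 and 44 bases before the start, whereas 6.02% of the 32851 promoters in the table held any. *Per3*, also lower, held 2 D-boxes at 205 and 158 bases, a motif found in 5.43% of promoters. *Nr1d2* and *Nfil3*, which moved in opposite directions, each held 1 core site of the REV-ERB type (14.0% of promoters), and *Fos* held 2 short CREs (17.8%). *Arntl* and *Dbp* held none of these letters within this window. Among the called genes with a listed promoter, 5 of 84 higher and 5 of 118 lower genes held an E-box, beside 9.33% of 12840 tested genes, and the D-box was held by 9 of 84 and 12 of 118, beside 4.41%. The short CRE was held by 20 of 84 and 28 of 118, beside 28.4%. For the REV-ERB site the numbers were 9 of 84 and 21 of 118, beside 13.3%. A match is a description of the letters and does not show binding.

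Immediate early factors formed another group with several called members, with wide ranges between mice. Of 19 tested members 5 were called higher and none lower, beside 0.797% and 1.21% of all genes tested, 16 had a fold change above 0, and the list median was 0.29. Complete separation of the conditions was not seen for any of the 19.

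*Fos*, the prototype of the group, held 6.85, 14.1 and 34.8 CPM in ELE libraries and 5, 6.74 and 14.5 CPM in sedentary libraries. TG9.1.4 and the right ELE library TG9.1.3 (24.8 CPM) were the highest, and TG9.1.1 was the highest sedentary library, within the ELE range. The log2 fold change was 1.12 (SE 0.38, unadjusted p = 0.00995), at 1.30 on the left and 0.94 on the right. It was 0.94 (SE 0.302, unadjusted p = 0.00703) without TG9.1.4 and TG9.1.1, and 0.69 without TG9.1.4 alone, the lowest of the 12 values with 1 library left out.

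*Egr2*, a zinc finger factor of the same wave, held 0.720, 1.98 and 7.92 CPM in ELE and 0.224, 0.682 and 1.23 CPM in sedentary libraries. All but 1 of the ELE libraries lay above all sedentary libraries. The log2 fold change of 1.85 (SE 0.543, unadjusted p = 0.00405) combined 1.15 on the left with 2.57 on the right (unadjusted p = 0.181 for the interaction). *Atf3*, a stress- and activity-induced repressor, held 0.492, 1.40 and 4.16 CPM in ELE and 0.315, 0.403 and 1.81 CPM in sedentary libraries, where TG9.1.1 was far above the other 5. Its log2 fold change was 1.59 (SE 0.536, unadjusted p = 0.0100), at 2.53 on the left and 0.71 on the right (unadjusted p = 0.0769 for the interaction). Leaving out TG9.1.4 and TG9.1.1 gave 1.71 (SE 0.524) for *Egr2* and 1.51 (SE 0.343) for *Atf3*, and leaving out TG9.1.4 alone gave 0.99 for *Atf3*.

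*Egr1*, which is abundant in the resting hippocampus, held 167, 204 and 310 CPM in ELE and 114, 149 and 181 CPM in sedentary libraries. The groups overlapped at their edges, and the log2 fold change was 0.48 (SE 0.144, unadjusted p = 0.00507). It was 0.27 on the left, under the fold limit, and 0.69 on the right (unadjusted p = 0.150 for the interaction). *Egr3* held 140, 203 and 363 CPM against 112, 157 and 167 CPM, with a log2 fold change of 0.51 (SE 0.179, unadjusted p = 0.0126). Without TG9.1.4 and TG9.1.1 the value for *Egr3* was 0.21 and no longer passed the test (unadjusted p = 0.0656), while *Egr1* stood at 0.40 (unadjusted p = 0.0107). *Npas4*, the neuron-specific early factor, had a log2 fold change of 0.19 (SE 0.468), with 0.661 to 6.83 CPM in ELE and 1.26 to 5.64 CPM in sedentary libraries.

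Activity-induced effectors followed with 2 of 20 members called higher and none lower, beside 0.797% and 1.21% of all genes tested, 19 above 0 and a median of 0.21. *Inhba*, which encodes the activin A subunit, held 4.80, 11.9 and 37.1 CPM in ELE and 2.95, 4.74 and 20.9 CPM in sedentary libraries, and TG9.1.1 was the library at 20.9 CPM. Its log2 fold change was 1.28 (SE 0.534, unadjusted p = 0.0302), at 1.93 on the left and 0.66 on the right. *Inhba* was called in 5 of 12 fits with 1 library left out. Those values ran from 0.51, without TG9.1.4, to 1.81, without TG9.1.1, and the value without both was 0.99 (SE 0.300, unadjusted p = 0.00468). *Sorcs3*, a sorting receptor of the postsynaptic density, held 38.2, 48.3 and 121 CPM against 31.4, 37.8 and 41.4 CPM, with TG9.1.4 alone at 121 CPM. The log2 fold change of 0.61 (SE 0.227, unadjusted p = 0.0170) was 0.23 without TG9.1.4 and TG9.1.1, under the fold limit. With all 12 libraries it was 0.94 on the left and 0.29 on the right. *Homer1*, a postsynaptic scaffold gene with an activity-induced short form, stayed under the fold limit at 0.28 (SE 0.0797, unadjusted p = 0.00338) with nearly equal values on the left (0.27) and the right (0.28). *Arc*, a regulator of AMPA receptor traffic, and *Bdnf*, a neurotrophin, stood at 0.58 (SE 0.311) and 0.20 (SE 0.144) and did not pass the test.

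**Figure D3:**
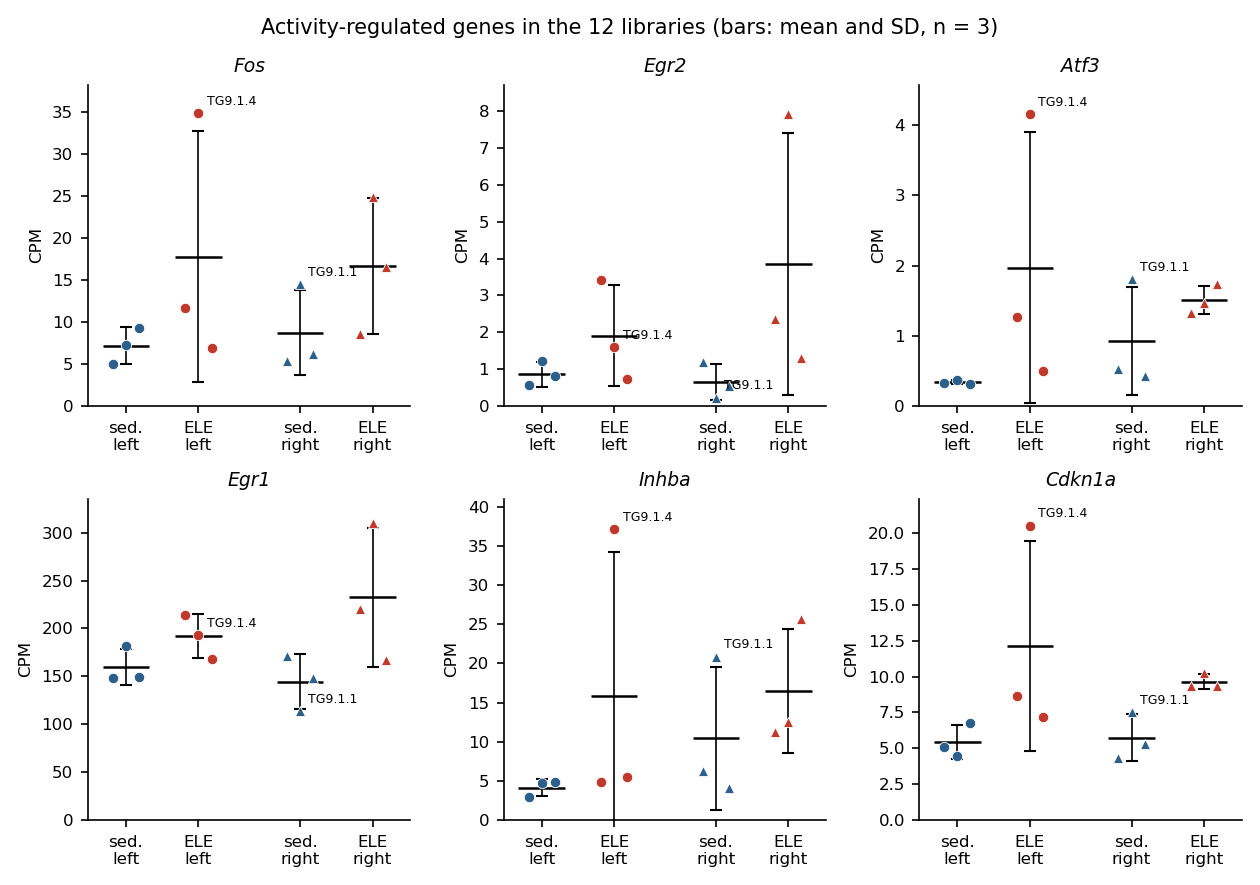
Levels of 6 activity-regulated genes (CPM, y axes) in each of the 12 libraries, by side and condition, with bars for the mean and SD of 3 libraries, cut at 0, and the mice TG9.1.4 and TG9.1.1 labelled. The ELE library TG9.1.4 is the highest of the 12 for *Fos*, *Atf3*, *Inhba* and *Cdkn1a*, and the sedentary library TG9.1.1 is the highest sedentary library for the same 4 genes.

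Both libraries that stood apart on the first principal component were often at the edge of their group. Over the 14 called members of the clock, immediate early, effector and MAP kinase feedback lists, TG9.1.4 was the ELE library farthest from the sedentary side for 9 genes, and TG9.1.1 the sedentary library nearest to the ELE side for 9 genes. Over all 378 called genes these numbers were 84, where TG9.1.3 had 91, and 97. TG9.1.4 also held the most interneuron marker RNA, 538 CPM against 236 to 315 CPM in the other 11 libraries, and its part in these results was not tested.

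Signalling genes downstream of activity included single called members, beside the 0.797% of all genes tested that were called higher and the 1.21% called lower. Of 12 MAP kinase phosphatases and feedback inhibitors 1 was called higher and none lower (median 0.10): *Dusp14*, a dual-specificity phosphatase, with 23.6, 30.7 and 53.0 CPM in ELE and 19.3, 21.9 and 41.6 CPM in sedentary libraries and a log2 fold change of 0.51 (SE 0.207, unadjusted p = 0.0260). Without TG9.1.4 and TG9.1.1 *Dusp14* stood at 0.52 (SE 0.159), and it was called in 8 of 12 fits with 1 library left out. *Dusp5*, a nuclear phosphatase for ERK, stood at 0.32 (SE 0.112, unadjusted p = 0.0114), under the fold limit. *Sik1*, an activity- and cyclic AMP-induced kinase that restrains CREB coactivators, held 6.73, 9.96 and 13.4 CPM in ELE and 4.53, 6.65 and 8.78 CPM in sedentary libraries. The conditions overlapped in part, and the log2 fold change was 0.61 (SE 0.174, unadjusted p = 0.00358). *Cdkn1a*, which encodes the cell cycle inhibitor p21 and was the called member among 16 genes of glucocorticoid signalling (1 higher, none lower, median -0.04), held 7.17, 9.34 and 20.5 CPM against 4.36, 5.22 and 7.54 CPM. TG9.1.4 was the single library at 20.5 CPM, and the log2 fold change was 0.95 (SE 0.234, unadjusted p = 0.00110) or 0.76 (SE 0.152) without TG9.1.4 and TG9.1.1.

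Neurotrophins and their receptors gave 1 higher and no lower call among 13 tested genes (median 0.14), where 0.797% of all genes tested were called higher. *Gfra2*, the receptor subunit for neurturin, held 30.9, 44.2 and 46.5 CPM in ELE and 20.8, 29.2 and 43.2 CPM in sedentary libraries. Its log2 fold change was 0.45 (SE 0.140, unadjusted p = 0.00571), at 0.37 on the left and 0.54 on the right, and 0.36 without TG9.1.4 and TG9.1.1, under the fold limit. Heat shock and chaperone genes gave 1 higher call of 24 (median 0.06), *Dnajb5*, at 0.40 (SE 0.156, unadjusted p = 0.0228). It was called in 8 of 12 fits with 1 library left out, at 0.25 without TG9.1.4, and in 0 of 5 fits without several libraries. Voltage-gated potassium and HCN channels gave 1 higher call of 21 (median 0.00035), the pacemaker channel gene *Hcn4*, at 0.80 (SE 0.372, unadjusted p = 0.0487), where 1.49 on the left stood beside 0.13 on the right (unadjusted p = 0.0596 for the interaction). *Hcn4* was called in 4 of 12 fits with 1 library left out.

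No member was called in 11 of the other functional lists. These were CREB and cyclic AMP signalling (24 genes, median 0.02), nitric oxide and cyclic GMP signalling (16, 0.02), NMDA and AMPA receptor subunits with their auxiliary proteins (19, 0.01), GABA-A receptor subunits (14, 0.03), neuropeptides and their processing (26, 0.17), neurogenesis (19, 0.01), exercise, angiogenic and lactate genes (20, 0.01), cholesterol synthesis and uptake (24, 0.08), interferon-induced genes (18, 0.03), respiratory chain subunits (29, -0.04) and histone modifiers (27, -0.03). The 15 transcripts of the mitochondrial genome (0.04) and 6 loci that resemble ribosomal RNA or collect its reads (0.09) also gave none. Some members of these lists passed the unadjusted threshold at changes under 1.31-fold. *Chgb*, which encodes the secretory granule protein chromogranin B, held 724, 944 and 1006 CPM in ELE and 667, 699 and 795 CPM in sedentary libraries, a log2 fold change of 0.35 (SE 0.0773, unadjusted p = 0.000434). *Kdm7a*, a histone demethylase gene, stood at 0.33 (SE 0.0932, unadjusted p = 0.00290), *Cnih3*, an auxiliary AMPA receptor protein, at 0.30 (SE 0.108), *Prox1*, a dentate granule cell factor, at 0.22 (SE 0.0785) and *Ldha*, a lactate dehydrogenase subunit, at 0.20 (SE 0.0686). *Creb1*, the transcription factor of the cyclic AMP pathway, stood at 0.15 (SE 0.0663, unadjusted p = 0.0387). *Nos1*, neuronal nitric oxide synthase, had a value that the sides did not share: 0.00 on the left and -0.62 on the right (unadjusted p = 0.000667 for the interaction, adjusted p = 1), where right ELE libraries averaged 68.7 CPM (SD 0.73, 3 libraries) and right sedentary libraries 106 CPM (SD 5.45). A list of 33 tested genes came from the study's account of exercise and included predicted upstream regulators. In it 1 gene was called higher and none lower, beside 0.797% and 1.21% of all genes tested. The list mixes genes reported there as raised or lowered with regulators, so its median of 0.01 does not measure agreement. All 5 members that passed the unadjusted threshold were higher in ELE mice. Among them were *Kdm7a*, *Dusp5* and *Prox1*, which the study's text reports as raised, each with a change under 1.31-fold. The called gene, *Egr1*, is named there as such a regulator and not as a changed transcript. That account rests on other libraries, those with simultaneous isolation described further on.

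**Figure D4:**
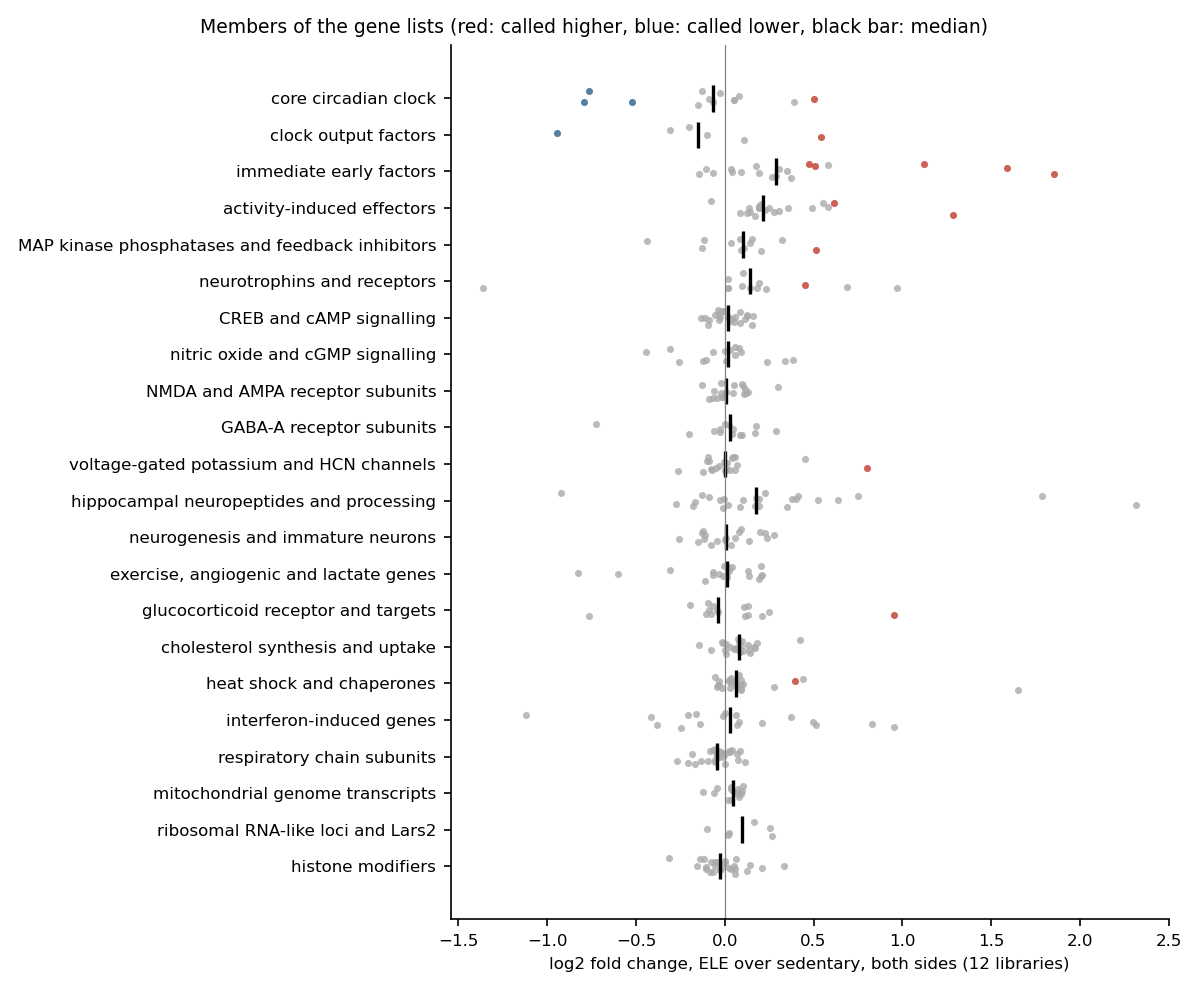
Log2 fold change (ELE over sedentary, both sides, x axis) of each tested member of 22 gene lists, with called genes in red (higher) or blue (lower), other genes in grey and the list median as a black bar. Medians of the immediate early factors (0.29) and effectors (0.21) lie right of the median of all genes (grey line), and those of most other lists lie near it.

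By smallest p, the higher genes outside these lists included *Igsf9*, *Anxa11* and *Cdh4*. *Igsf9*, which encodes a cell adhesion protein of dendrites and inhibitory synapses, held 4.78, 5.54 and 7.23 CPM in ELE and 3.87, 4.09 and 4.30 CPM in sedentary libraries. The groups did not overlap, and the log2 fold change was 0.48 (SE 0.117, unadjusted p = 0.00103), at 0.46 on the left and 0.49 on the right. *Anxa11*, an annexin involved in RNA granule transport, stood at 0.39 (SE 0.110, unadjusted p = 0.00308), and *Cdh4*, R-cadherin, at 0.42 (SE 0.123, unadjusted p = 0.00414). With 1 library left out *Anxa11* was called in 7 of 12 fits and *Cdh4* in 9 of 12. Each was called in 3 of 5 fits without several libraries. The other genes that the rule selected were the non-coding RNAs or unclassified loci *Gm35037*, *Gm49759* and *AI115009* and the pseudogene *Gm2274*, between 0.40 and 0.91. *Klf10*, a TGF-beta-inducible factor that was chosen after its values were seen, stood at 0.72 (SE 0.228, unadjusted p = 0.00691).

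Among the lower genes, *Pcbd2*, which encodes a pterin dehydratase and transcriptional cofactor, held 3.79, 4.18 and 4.70 CPM in ELE and 5.07, 5.62 and 6.48 CPM in sedentary libraries. *Amdhd2*, an enzyme gene of amino sugar metabolism, held 10.0, 12.5 and 13.5 CPM against 13.9, 15.9 and 17.7 CPM, and *Rnaseh2b*, a ribonuclease H2 subunit gene, 4.02, 4.71 and 5.15 CPM against 5.31, 6.39 and 8.15 CPM. In each of these 3 genes all ELE libraries lay below all sedentary libraries. The log2 fold changes were -0.43 (SE 0.104), -0.41 (SE 0.103) and -0.48 (SE 0.128), with unadjusted p-values of 0.000883, 0.00125 and 0.00212. *Amdhd2* was called in 8 of 12 fits with 1 library left out and in 2 of 5 without several libraries. *Pcbd2* and *Rnaseh2b* were called in all of these fits. *Paqr6*, a membrane progestin receptor gene, stood at -0.40 (SE 0.106), but at -0.67 on the left and -0.14 on the right, and this difference passed the unadjusted threshold (unadjusted p = 0.00761 for the interaction).

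Pseudogenes made up much of the remainder. Processed pseudogenes were 49 of the 228 lower genes (21.5%) and 6 of the 150 higher genes (4%), beside 4.89% of all genes tested. Of 91 tested pseudogenes of ribosomal proteins, 13 were called lower and none higher, with a median log2 fold change of -0.25. Of the 81 tested protein-coding ribosomal protein genes none was called, and their median was -0.04. *Rpl28-ps1*, named by the rule, held 2.82, 3.11 and 4.84 CPM in ELE and 4.85, 5.66 and 6.36 CPM in sedentary libraries, a log2 fold change of -0.66 (SE 0.156, unadjusted p = 0.000833). The rule also named *Gm14303*, *Gm7331*, *Gm6472* and *Gm10120*, which are processed pseudogenes, and *Rps27rt*, a retrotransposed copy, at log2 fold changes between -1.16 and -0.46. Reads from such copies can be split with their parent genes by the aligner, so these values are uncertain. Annotated exonic length had a median of 2234 bases in lower and 2806 bases in higher genes, against 3757 bases in all tested genes.

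Transcripts from outside the tagged lineage were high in single libraries of both conditions. The 12 choroid plexus markers summed to 1069 CPM in 1 ELE library (TG7.3.2) and to 1102, 1344 and 1233 CPM in 3 sedentary libraries, against 21.8 to 100.2 CPM in the other 8. Of the 12 markers 2, *Folr1* and *Aqp1*, were called lower in ELE mice, none higher, beside 1.21% and 0.797% of all genes tested, and 0 of 12 had a fold change above 0 (median -1.92). Each of these 2 genes was called in 4 of 12 fits with 1 library left out. *Folr1* stood at -1.85, at -3.20 without TG7.3.2 and at -1.14 without TG9.2.3, and *Aqp1* at -2.83, -5.62 and -1.83. *Ttr*, the most abundant of them, held 2.28 to 908 CPM in ELE and 12 to 1167 CPM in sedentary libraries and did not pass the test (unadjusted p = 0.0672). Without these 4 libraries 595 genes reached an unadjusted p under 0.05 in place of 998, and 18 of 39 called genes examined were no longer called. Among them were *Per3* at -0.72 (unadjusted p = 0.0780), *Fos* at 0.89 (unadjusted p = 0.113), *Atf3* at 1.08 (unadjusted p = 0.179) and *Inhba* at 0.85 (unadjusted p = 0.220), while *Arntl* (0.48), *Nfil3* (0.48), *Dbp* (-0.86), *Ciart* (-0.91), *Nr1d2* (-0.55), *Egr2* (1.71) and *Egr1* (0.54) still passed the unadjusted rule. Of 11 endothelial and pericyte markers 1 was called lower (*Tek*, at 0 to 0.262 CPM in ELE and 0.0175 to 2.22 CPM in sedentary libraries) and 0 were above 0 (median -0.87), and TG7.3.3 held 61.3 CPM against 16.0 to 25.3 CPM elsewhere. The other marker lists gave no call but for *Drd2*, called higher among 12 striatal markers at 0.49 (SE 0.194, unadjusted p = 0.0237) and 1.10 to 2.77 CPM. None of 4 red cell, 11 microglial, 13 interneuron, 10 astrocyte, 12 oligodendrocyte lineage or 12 meningeal markers was called, nor any of 10 markers each of excitatory neurons and dentate granule cells, 9 of CA1 or 12 of CA2 and CA3 pyramidal cells. The part of these transcripts in the other results was not tested.

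**Figure D5:**
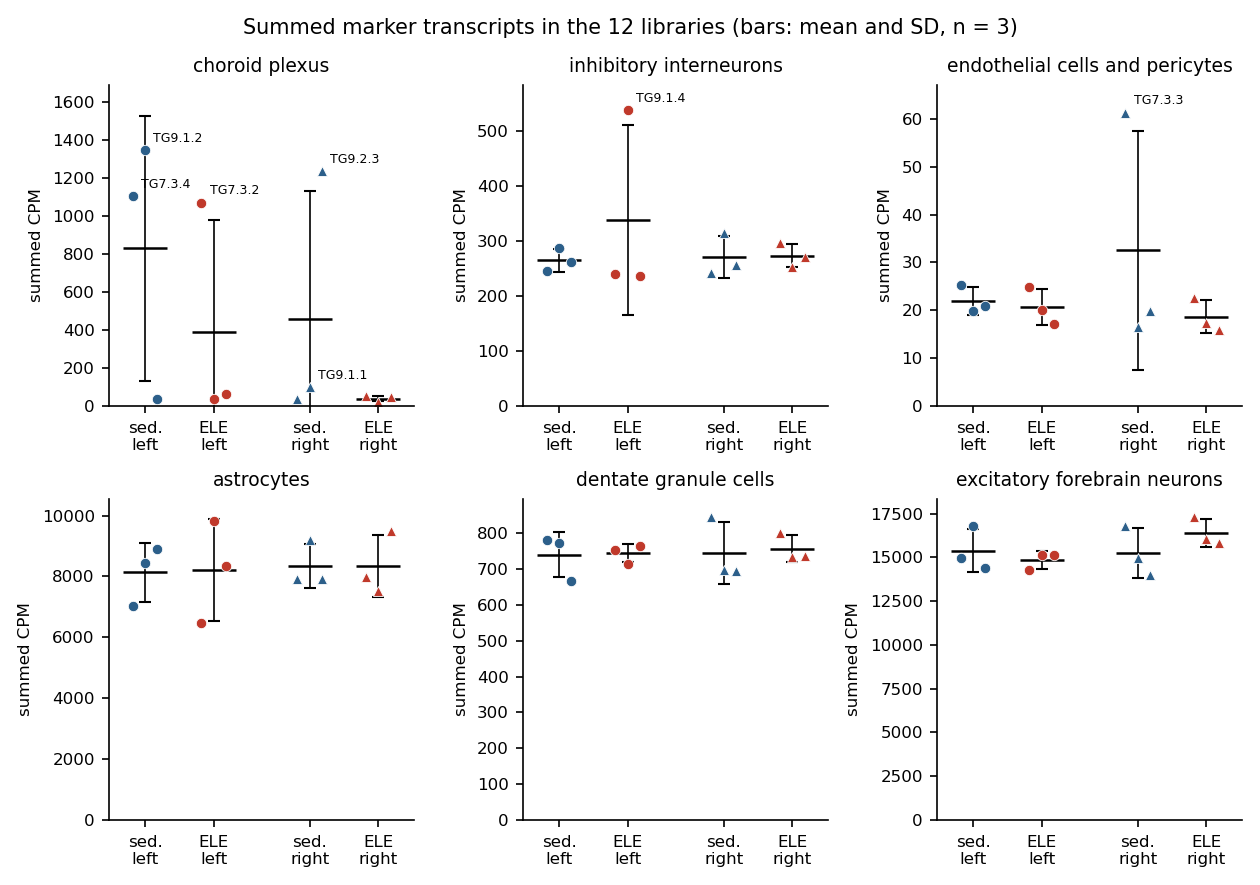
Summed levels of marker transcripts (CPM, y axes) for 6 cell types in each of the 12 libraries, by side and condition, with bars for the mean and SD of 3 libraries, cut at 0. Libraries above 1.5 times the median are labelled: 5 for choroid plexus, TG9.1.4 for interneurons and TG7.3.3 for endothelial cells, while excitatory neuron markers vary little.

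Single genes were also compared with a two-sided exact permutation test on the 12 values, with exercise labels exchanged within each hemisphere. It allows 400 arrangements and a smallest p of 0.005. Of the 136 genes tested in this way 25 reached that smallest p, and 43 stayed under 0.05 after adjustment over the 136. *Arntl*, *Ciart*, *Cdkn1a*, *Igsf9* and *Gfra2* were among those at the smallest value (permutation p = 0.005, adjusted p = 0.0272), followed by *Dbp* and *Nfil3* (0.01, adjusted p = 0.0368) and *Nr1d2* (0.015, adjusted p = 0.0474). *Egr2* (0.025), *Atf3* (0.04), *Per3* (0.05) and *Fos* (0.055) had adjusted p-values of 0.0708, 0.101, 0.119 and 0.123 by the same exact test. Most of these genes were chosen with the model's results known, so the test is a check on the 12 values and not new evidence.

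A further 8 libraries, 4 from ELE and 4 from sedentary mice, came from both hippocampi of a mouse combined, with mRNA and nuclei isolated together (simultaneous isolation, SIT). These were other mice under the same contrast, and 4 of the libraries stood apart in 1 or more transcripts. The sedentary libraries NT7.2.3 and NT7.2.4 held the mitochondrial ribosomal RNA *mt-Rnr2* at 4803 and 5641 CPM, against 72.0 to 217 CPM in the other 6, the microglial marker *Cx3cr1* at 38.8 and 46.3 CPM, against 0.118 to 1.58 CPM, and the interneuron marker *Slc32a1* at 77.3 and 69.9 CPM, against 1.02 to 4.67 CPM. The ELE library NT6.304 held *Fos* at 613 CPM, against 11.4 to 19.0 CPM in the other 3 ELE libraries. The ELE library TG7.4.2 held *Gm42418*, a locus that collects ribosomal RNA reads, at 7170 CPM, against 622 to 1828 CPM in the other 7. The study left out sedentary samples for much ribosomal and other non-mRNA sequence, and an exercised animal for its place on a principal component, and which ones is not given in the sources used here. Most SIT values below are given with and without these libraries, and where no setting is named all 8 were used.

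All 8 libraries gave the 6 called clock genes the same direction as in the separate isolation, with *Arntl* at 0.42 (unadjusted p = 0.0262), *Nfil3* at 1.32 (unadjusted p = 0.0139), *Dbp* at -0.63 (unadjusted p = 0.0963), *Ciart* at -0.43, *Nr1d2* at -0.42 and *Per3* at -0.26. Without NT7.2.3 and NT7.2.4 no clock gene was called: *Arntl* stood at 0.22 (unadjusted p = 0.202), *Nfil3* at 1.04 (unadjusted p = 0.112), *Dbp* at -0.64, *Ciart* at -0.18, *Nr1d2* at -0.29 and *Per3* at -0.28. Without NT6.304 *Arntl* stood at 0.39 (unadjusted p = 0.0535), *Nfil3* at 0.63 (unadjusted p = 0.0486), *Dbp* at -0.33 (unadjusted p = 0.0210, under the fold limit), *Ciart* at -0.36, *Nr1d2* at -0.18 and *Per3* at 0.00. Without TG7.4.2 *Arntl* stood at 0.52 (unadjusted p = 0.00968), *Nfil3* at 1.59 (unadjusted p = 0.00310), *Dbp* at -0.75 (unadjusted p = 0.0872), *Ciart* at -0.54, *Nr1d2* at -0.43 and *Per3* at -0.33. *Dbp* held 6.78 CPM in NT6.304, 25.9 to 26.9 CPM in the other ELE libraries and 30.6 to 35.7 CPM in sedentary libraries, so the groups did not overlap. *Arntl* held 29.1 to 40.1 CPM in ELE and 21.6 to 31.6 CPM in sedentary libraries.

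By the same rule 402 genes (2.29% of 17531 tested) were called higher and 948 (5.41%) lower in SIT, and the adjusted p was under 0.05 for 0 genes by edgeR (1590, or 9.07%, at an unadjusted p under 0.05) and for 250 by DESeq2. Immediate early factors were called higher for 12 of 19 members with all 8 libraries (median 1.15), for 3 of 19 without NT6.304 (median 0.34, beside 1.54% of all genes), for 12 of 19 without TG7.4.2 (median 1.38, beside 2.7% of all genes) and for 1 of 20 without NT7.2.3 and NT7.2.4 (median 1.08, beside 1.26% of all genes). *Fos* had a log2 fold change of 3.88 with all 8 libraries, 4.27 without TG7.4.2 and 0.34 (unadjusted p = 0.251) without NT6.304, beside 1.12 in the 12 libraries of the separate isolation. The difference in size between the isolations was not tested.

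Of the 129 higher genes of the separate isolation tested in SIT 79 (61.2%) had the same sign, and of 201 lower genes 140 (69.7%), against 56.3% of all genes tested in both. Without NT7.2.3 and NT7.2.4 these shares were 70.9%, 75.1% and 61.8%, without NT6.304 51.1%, 67.0% and 51.2%, and without TG7.4.2 57.7%, 73.2% and 58.3%. In SIT 20 of the higher genes were called higher and 5 lower, and 18 of the lower genes were called lower and none higher, where 2.29% of all SIT genes were called higher and 5.41% lower. *Gfra2* (-0.20), *Cdh4* (-0.19) and *Hcn4* (-0.58) had the opposite sign with all 8 libraries, and without NT7.2.3 and NT7.2.4 *Hcn4* stood at 0.27, *Gfra2* at 0.0011 and *Cdh4* at -0.13. Without NT6.304 *Hcn4* was called lower in ELE, at -1.25 (unadjusted p = 0.0370), while *Gfra2* stood at -0.23 and *Cdh4* at -0.34. Without TG7.4.2 these genes stood at -0.48, -0.27 and -0.21. In SIT 12 of 13 interneuron and 11 of 11 microglial markers and 15 of 15 mitochondrial transcripts were called lower in ELE, beside 5.41% of all genes, and without NT7.2.3 and NT7.2.4 these counts were 2, 0 and 0, beside 1.5% of all genes. Between the same settings calls fell from 8 to 3 of 12 choroid plexus, from 6 to 2 of 11 meningeal and from 5 to 0 of 8 endothelial and pericyte markers, while 4 of 5 red cell markers were called in place of 5. Without NT6.304 the interneuron, microglial and mitochondrial counts were 12, 11 and 15, and without TG7.4.2 they were 11, 10 and 15.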

How the data were processed

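RNA from tagged ribosomes of Emx1-lineage hippocampal cells was sequenced by the authors, 1 library per hippocampus. STAR 2.7.3a aligned the reads to GRCm38.p6, and Picard 1.87 took out duplicates, which can lower the counts of short and abundant transcripts most, and read pairs overlapping exons were counted per gene with strand. The deposited values are these raw counts, neither normalised nor pooled, for 55335 genes. Columns carry bare mouse numbers, and the mouse list in the study's supplement was needed to place them on a side and in a condition. The 24 columns of wild-type hippocampus were not used.

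The 12 libraries were fitted with edgeR (version 4.0.16, R 4.3.3): filterByExpr, TMM scaling, and the quasi-likelihood test on hemisphere plus exercise. A call needed an unadjusted p under 0.05 together with a log2 change beyond 0.3875 either way, the limits in the study's methods (the limit of 0.3785 in a legend there called 154 genes higher and 233 lower), and Benjamini-Hochberg adjustment was over all genes tested. Levels are CPM on TMM-scaled library sizes. Interaction, single-side and SIT fits used the same tool. Two-sided exact permutation tests used log2(CPM + 0.5). Alternatives were DESeq2 (version 1.42.0), limma-voom (limma version 3.58.1), other scalings, filters and terms, a block for mouse number, and left-out libraries. Each library is 1 mouse, and p-values cover the spread between these mice.

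Genes were named by a rule: the 12 higher and 12 lower called genes of smallest p averaging at least 1 CPM and of 1 sign on both sides, up to 4 called members of each list, the member of smallest p in a list with no call, and any gene with an adjusted p under 0.05. Genes given beyond the rule illustrate a list or were chosen after their values were seen. The comparison, the lists and the tests were chosen with earlier results of these data known. Symbols and types came from GENCODE vM21, which matched 55154 genes.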

Additional observations from a re-analysis of the deposited data

Results flagged for a closer look

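A library was looked at again where its distance from the rest of its 6 passed Dixon's 95% limit. This held for 15 of 104 groups of 6, where chance gives about 1 in 20 for independent, normally distributed values. The groups were levels in the same 12 libraries and not independent, so the excess was not tested. Most of the 15 flagged values belonged to the mice TG9.1.1 (sedentary, right) and TG9.1.4 (ELE, left). In TG9.1.1 *Nfil3* was at 16.4 CPM (11.2 to 12.5 CPM in the other 5 sedentary libraries), *Dbp* at 31.2 CPM (49.9 to 55.9), *Per3* at 10.4 CPM (28.7 to 33.8), *Atf3* at 1.81 CPM (0.315 to 0.528), *Inhba* at 20.9 CPM (2.95 to 6.3) and *Dusp14* at 41.6 CPM (19.3 to 24.7). All 6 values lay on the side of the ELE libraries.

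In TG9.1.4 *Cdkn1a* was at 20.5 CPM (7.17 to 10.2 CPM in the other 5 ELE libraries), *Dbp* at 12.6 CPM (23.1 to 31.9) and *Sorcs3* at 121 CPM (38.2 to 49.8), each farther from the sedentary libraries than the rest of its group. Its summed interneuron markers were 538 CPM (236 to 296) and its striatal markers 470.2 CPM (341 to 371).

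Transcripts of other cell types stood apart in 2 further libraries. The ELE library TG7.3.2 held 1069 CPM of choroid plexus markers (21.8 to 62.7), with *Folr1* at 7.17 CPM (0.107 to 0.650) and *Aqp1* at 7.39 CPM (0 to 0.141). The sedentary library TG7.3.3 held 61.3 CPM of endothelial and pericyte markers (16.4 to 25.3).

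Of 39 called genes tested for a difference between hemispheres, *Paqr6* differed at an unadjusted p of 0.00761 by edgeR's quasi-likelihood test, with log2 fold changes of -0.67 on the left and -0.14 on the right, a difference of 0.53. The adjusted p of this difference over all genes was 1, and 2.6% of all genes tested reached an unadjusted p under 0.05 for it.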

How the results depend on the processing

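No called gene among the 39 examined changed sign under any alternative. These genes were called on the same 12 libraries, and many were chosen for 1 sign on both sides, which favours this. With all 12 libraries kept, 334 of 350 calls held, against 401 of 468 when 1 library was left out, 48 of 77 on 1 side alone and 140 of 195 without several libraries. The counts moved more. DESeq2 called 226 genes higher and 389 lower and left 11 with an adjusted p under 0.05. Without a filter on low counts the values were 385 higher, 576 lower, 3 adjusted and 1612 unadjusted, and with a mean of at least 1 CPM 83 higher and 125 lower. The left libraries alone gave 0 adjusted, and the right libraries alone 0 adjusted and 488 unadjusted.

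Without TG9.1.4 and TG9.1.1, chosen after seeing the data, 2 genes (*Arntl* and *Dbp*) had an adjusted p under 0.05. Without the 4 libraries rich in choroid plexus transcripts, also chosen then, 0 did and 595 passed unadjusted. Without the TG9.1 mice 1 gene was adjusted, *Dbp* (0.000728) and not *Arntl*, whose adjusted p was under 0.05 in 1 of the 5 fits without several libraries. Without the TG7.3 mice 345 genes were lower and 0 adjusted, and without the TG9.2 mice 142 were lower, 0 adjusted and 605 unadjusted. Leaving out each library in turn gave 143 to 337 higher (337 without TG9.1.1), 184 to 427 lower (427 without TG7.3.2), 730 to 1482 unadjusted and 0 to 2 adjusted, with 0 without TG7.3.4, TG9.2.1 or TG9.2.4 and 2 without TG9.1.4. For the effect on the left these ranges were 142 to 492 higher (462 without TG7.3.2) and 160 to 443 lower (323 without TG9.1.4, 335 without TG9.2.2), and for that on the right 146 to 250 and 265 to 506. The cause of these shifts was not tested.

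In SIT, edgeR gave 0 genes with an adjusted p under 0.05 (1590 unadjusted) and DESeq2 250, with 1461 lower. Without the sedentary libraries NT7.2.4 and NT7.2.3 the counts were 233 higher and 278 lower, and leaving out 1 library gave 189 to 700 higher (670 without NT6.306), 542 to 1285 lower (600 without NT7.2.3) and 0 to 0 adjusted.

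Mouse number was not shown to pair the libraries: deviations of same-numbered libraries correlated at -0.0992 to 0.565 (median 0.026, 18 pairs) and others at -0.39 to 0.305 (36 pairs). The value of 0.565 was that of TG9.1.4 with TG9.1.1, the libraries that stood apart on the first principal component. With the number as a replicate block 167 genes were higher, 279 lower and 1265 passed unadjusted, and the adjusted p of *Arntl* was 0.0153. At this depth 3 counts equalled 0.0456 to 0.0654 CPM, so that genes near that level, such as *Tek*, rested on a few counts in some libraries.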

Other observations

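Some genes changed by less than 1.31-fold with a smaller p than most called genes. They were chosen after their values were seen. *Far1*, which encodes a reductase of ether lipid synthesis, held 37.0 to 40.6 CPM in ELE and 29.7 to 34.2 CPM in sedentary libraries, with a log2 fold change of 0.31 (SE 0.0571, unadjusted p = 7.69e-05, adjusted p = 0.521 by edgeR's quasi-likelihood test). *Slc25a25*, a mitochondrial ATP-magnesium and phosphate carrier gene, held 65.4 to 79.8 CPM against 56.7 to 63.7 CPM, at 0.28 (SE 0.0520, unadjusted p = 8.30e-05). All 6 ELE libraries lay above all 6 sedentary libraries in both genes. In SIT, with all 8 libraries, *Slc25a25* stood at 0.37 (unadjusted p = 0.00497) and *Far1* at -0.23 (unadjusted p = 0.289). *Far1* held 40.7 to 52.8 CPM in SIT ELE libraries and 38.5, 41.9, 69.1 and 71.8 CPM in NT6.305, NT6.306, NT7.2.3 and NT7.2.4.

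*Pdp1*, encoding a phosphatase that activates pyruvate dehydrogenase, and *Rps6ka3*, encoding the kinase RSK2, stood at 0.31 (SE 0.0590) and 0.36 (SE 0.0750). Their SIT values with all 8 libraries were 0.22 and 0.31. *Pdp1* held 44.4 to 69.6 CPM in SIT ELE libraries and 43.4, 42.0, 54.9 and 60.0 CPM in NT6.305, NT6.306, NT7.2.3 and NT7.2.4. Among lower genes, *Rabac1* held 85.4 to 94.1 CPM in ELE and 97.3 to 118.6 CPM in sedentary libraries (-0.26, SE 0.0579), and *Maz*, a zinc finger factor gene, 316 to 351 CPM against 357 to 401 CPM (-0.19, SE 0.0480). Their SIT values with all 8 libraries were 0.03 and 0.04. *Rabac1* held 73.1 to 110 CPM in SIT ELE libraries and 98.6, 97.0, 72.3 and 69.4 CPM in NT6.305, NT6.306, NT7.2.3 and NT7.2.4. *Maz* held 263 to 331 CPM in SIT ELE libraries and 346, 323, 261 and 234 CPM in the same 4 sedentary libraries.

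*Xist*, the X-inactivation RNA of female cells, was called higher in ELE mice although all animals were male. It held 0.222, 0.346 and 0.802 CPM in ELE and 0.0181, 0.165 and 0.210 CPM in sedentary libraries, with a log2 fold change of 1.76 (SE 0.547, unadjusted p = 0.00591, adjusted p = 0.919). The Y-linked gene *Ddx3y* held 25.8 to 34.1 CPM and 28.4 to 37.4 CPM in the same groups. The lowest *Xist* level, 0.0181 CPM, was under that of 3 counts. In SIT *Xist* held 0 to 0.0727 CPM in ELE and 0 to 0.152 CPM in sedentary libraries, so the rise was not seen there.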
